A study of Caenorhabditis elegans with 2 samples.

Results

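Small nucleolar RNA (snoRNA) genes that stand outside protein-coding genes were examined for chromatin regions recovered with T26A5.8-GFP in young adult Caenorhabditis elegans. These are the genes of biotype snoRNA in the Ensembl annotation that do not lie wholly within the body of a protein-coding gene on either strand. There were 130 such genes among 346 snoRNA genes and 46890 annotated genes on the 6 nuclear chromosomes. The other 216 snoRNA genes lie inside protein-coding genes. All worms in the series were of strain OP598, which carries the unc-119 allele tm4063 on chromosome III and the integrated transgene wgIs598. Per the labels, the strain stably expresses T26A5.8 with a C-terminal GFP-FLAG tag, and the sequence that drives the transgene is not given there. Whole worms of mixed sex were collected as young adults 63 h after synchronization as starved first-stage larvae, and chromatin was recovered with an antibody against GFP. There were 2 biological replicates, numbered 3 and 4, in 1 group, with no second condition. No control library was analysed here.

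A snoRNA guides the chemical modification of other RNAs, chiefly ribosomal RNA, by base pairing with them in the nucleolus. Box C/D snoRNAs carry a TGATGA-like box C near their start and a CTGA box D near their end, and guide methylation of the ribose by fibrillarin. Box H/ACA snoRNAs end in ACA followed by a few bases, and guide the change of uridine to pseudouridine by dyskerin. In animals many snoRNAs are cut from introns of host genes, while others are transcribed from promoters of their own. RNA polymerase III, the enzyme that makes tRNAs, starts at tRNA genes from an A box and a B box inside the gene and stops at a run of T. In C. elegans some snoRNA genes are known to be made by RNA polymerase III as well.

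The authors' thresholded list, which holds 369 regions that passed a reproducibility threshold over the replicates, placed a summit within 200 bp of 20 of the 130 genes. A pair of letter strings was found near the start of 9 of these genes, and the bases just before the 5 of them with the strongest regions are shown. Y23H5B.10 and ZK265.10, whose regions were the next strongest after that of W03C9.9, lack the pair and are not shown. Each line runs 5′ to 3′ on the strand of the snoRNA gene, from 100 bases before the gene to its first 10 bases, on build WBcel235 (ce11). The capitals mark TGGNNNA, which matches part of the A box of tRNA genes, and GTTCNA, which matches part of the B box. Where several pairs were possible, the GTTCNA nearest the gene start was taken, with the closest TGGNNNA beginning 30 to 65 bp before it. Other matches to either string are left in small letters. The intervals are chrII:11960798-11960907 on the plus strand for W03C9.9, chrV:15191084-15191193 on the minus strand for Y75B12B.12, chrII:8107261-8107370 on the minus strand for C41C4.11, chrV:15873917-15874026 on the minus strand for T06C12.16 and chrIV:7574022-7574131 on the plus strand for F32E10.10.
W03C9.9: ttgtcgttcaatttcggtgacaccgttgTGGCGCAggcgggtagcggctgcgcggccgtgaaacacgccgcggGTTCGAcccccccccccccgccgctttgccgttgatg
Y75B12B.12: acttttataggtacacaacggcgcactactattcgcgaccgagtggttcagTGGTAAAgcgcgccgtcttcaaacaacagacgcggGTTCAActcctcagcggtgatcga
C41C4.11: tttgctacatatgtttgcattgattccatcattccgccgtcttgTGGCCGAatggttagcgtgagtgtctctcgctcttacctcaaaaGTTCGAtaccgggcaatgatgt
T06C12.16: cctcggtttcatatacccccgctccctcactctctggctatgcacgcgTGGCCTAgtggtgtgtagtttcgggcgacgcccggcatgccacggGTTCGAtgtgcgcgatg
F32E10.10: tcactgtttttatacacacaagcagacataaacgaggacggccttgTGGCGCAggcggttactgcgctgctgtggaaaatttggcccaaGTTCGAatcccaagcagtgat

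A second string, GCGGAACNC, preceded 3 of the 20 genes and is in capitals in the next 3 lines. They cover the same window at chrIV:4880841-4880950 for T08B6.64, chrII:15025884-15025993 for Y53F4B.47 and chrIV:14327112-14327221 for Y67A10A.14, all on the minus strand.
T08B6.64: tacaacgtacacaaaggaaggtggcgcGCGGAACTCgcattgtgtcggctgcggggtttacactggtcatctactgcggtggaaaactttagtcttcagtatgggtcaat
Y53F4B.47: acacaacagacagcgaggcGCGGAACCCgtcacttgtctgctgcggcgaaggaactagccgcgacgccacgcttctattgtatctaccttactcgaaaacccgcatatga
Y67A10A.14: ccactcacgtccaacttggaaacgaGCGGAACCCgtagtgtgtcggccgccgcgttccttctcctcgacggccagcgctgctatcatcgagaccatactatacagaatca

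The leader of K07C10.2, at chrII:11167117-11167226 on the plus strand, is shown for contrast. It holds neither the TGGNNNA and GTTCNA pair nor GCGGAACNC, though TGGNNNA alone occurs in it. It is also the poorest in G and C of the 20, at 34% over its 100 bases, and does not stand for all 8 genes with neither. The whole gene W03C9.9, at chrII:11960898-11960959 with the 10 bases past its end, is shown for its own boxes, with box C (TGATGA), the box D letters near its end (CTGA) and the run of T past its end in capitals.
K07C10.2: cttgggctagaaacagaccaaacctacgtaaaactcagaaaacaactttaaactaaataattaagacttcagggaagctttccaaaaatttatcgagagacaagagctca
W03C9.9: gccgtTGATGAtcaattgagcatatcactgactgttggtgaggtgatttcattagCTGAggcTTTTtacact

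Regions of the thresholded list lay beside snoRNA genes outside protein-coding genes more often than beside annotated genes as a whole. Of the 130 genes, 20 held such a region (15.4%, exact 95% interval 9.66 to 22.8, for the counting of genes only), against 1.38% of all annotated genes. Among snoRNA genes inside protein-coding genes, 25 of 216 held one (11.6%, interval 7.63 to 16.6), so the intervals of both kinds of snoRNA gene overlapped. Transfer RNA genes stood at 22.1% (135 of 612), genes for small nuclear RNAs at 10.1% (13 of 129), unclassified non-coding genes at 1.78% and protein-coding genes at 1.51%. No test was run between these classes, and neighbouring genes can share a region.

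The lists of candidate regions, with 30000 entries each and background included, separated the snoRNA genes less from other genes. In the list from the pooled replicates 57 of the 130 held a summit (43.8%, interval 35.2 to 52.8), against 32.8% of all annotated genes. The list of replicate 3 placed a summit at 65 of them, against 33.6% of all genes, and that of replicate 4 at 60 (46.2%), against 33.7%. Protein-coding genes stood at 56.7% in the pooled list, snRNA genes at 51.9% and snoRNA genes inside protein-coding genes at 47.7%. The part of gene length in these shares was not tested. Genes annotated as piRNA, 15363 of the 46890, stood at 1.59% and so lower the share over all genes. The excess over all genes in these candidate lists thus rests largely on the piRNA genes counted there. In all, 53 of the 130 had a summit in both replicate lists, and 58 had none in any of the 4 lists.

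**Figure D1:**
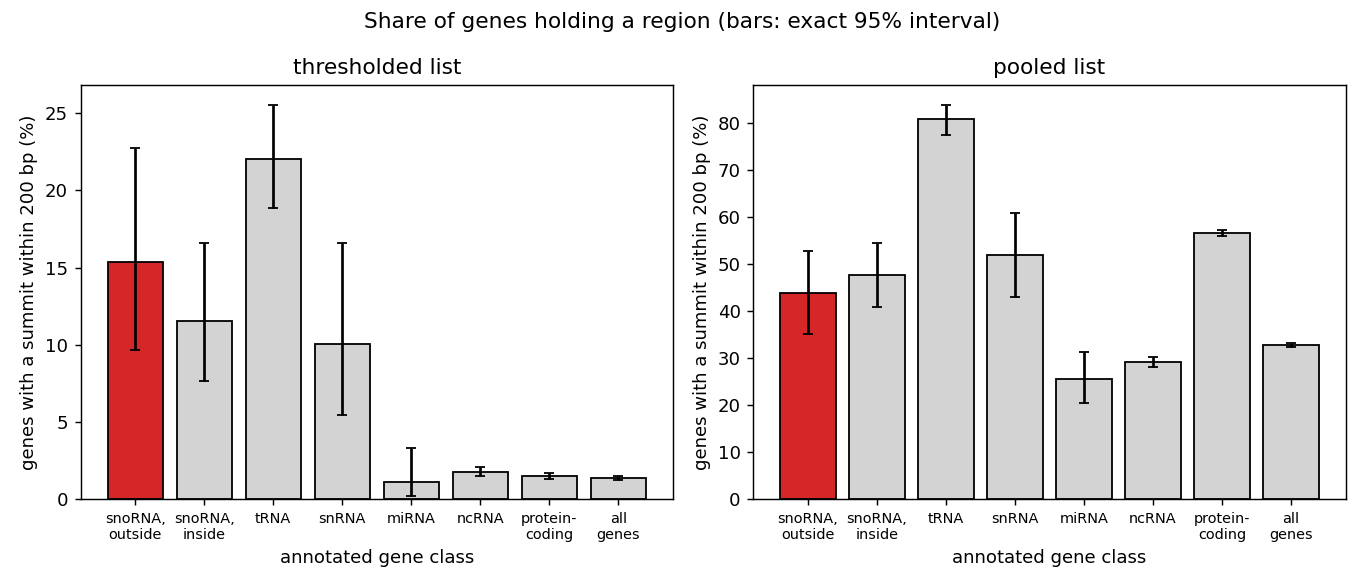
Share of genes (%) with a region summit within 200 bp, by annotated class, in the thresholded list (left) and in the pooled candidate list (right); red bars are the 130 snoRNA genes outside protein-coding genes, and whiskers are exact 95% intervals for the counting of genes. In the thresholded list the red bar stands at 15.4%, between tRNA genes at 22.1% and snoRNA genes inside protein-coding genes at 11.6%, while in the pooled list it stands at 43.8%, below protein-coding genes at 56.7%.

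The regions at these snoRNA genes were among the stronger ones of the list. The signal, which is the enrichment the authors deposited for each region on a scale they do not describe, had a median of 149 at the 20 genes (93.9 to 277) and of 105 over the other 349 thresholded regions (87.7 to 394). At regions beside snoRNA genes inside protein-coding genes the median was 134 (n = 24). Of the 10 strongest regions of the list 3 lay at snoRNA genes outside protein-coding genes, of the 50 strongest 9 and of the 100 strongest 13. The 20 genes had 21 thresholded regions in all, since Y53F4B.47 had a second one, and no 2 genes shared a region. They were spread over all 6 chromosomes, with 1 of 23 genes on the X chromosome and between 2 and 6 on each autosome.

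The 9 genes with the TGGNNNA and GTTCNA pair had the highest median signal, 174, with a range of 97.8 to 277. W03C9.9, a 62-bp gene with the CTGA of box D, had the strongest region of the 20 and the fourth of the whole list, at chrII:11960695-11960919, with a signal of 277 in the thresholded list, 174 in replicate 3 and 111 in replicate 4. Its neighbours are the ends of W03C9.1, 31 bp downstream on the other strand, and of W03C9.6. Y75B12B.12 had 218 in the thresholded list, 121 in replicate 3 and 108 in replicate 4. It also ends with CTGA and lies 50 bp from the end of cyn-3, which encodes a cyclophilin. C41C4.11 had 194 in the thresholded list, 109.5 in replicate 3 and 75.4 in replicate 4. T06C12.16 had 189.7, 95.6 and 90.9 in the same 3 lists. Both have a CTGA end. The carbohydrate sulfotransferase gene chst-1 starts 225 bp downstream of C41C4.11, and the chemoreceptor gene str-56 ends 85 bp downstream of T06C12.16. F32E10.10 had 174 in the thresholded list, 99.3 in replicate 3 and 64.4 in replicate 4, and neither end type was found in it. It holds TGATGA, as in box C, near its start. A run of T crosses its annotated end, so it was not counted among genes followed closely by TTTT. Counts of end letters and of TTTT depend on the annotated ends.

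The remaining 4 genes with the pair ran from the middle to the lower end of the 20. T19B4.8, at I:5707046-5707119, had 158.5 in the thresholded list, 87.6 in replicate 3 and 71.8 in replicate 4, and its nearest protein-coding gene, the peptide-amidating enzyme gene pamn-1, ended 1493 bp upstream. F30H5.4, which follows the end of the myosin chaperone gene unc-45 by 179 bp, had 149, 87.7 and 61.9. T02E1.9, which overlaps the sperm gene spe-12, had 136, 64.8 and 69.9, and was 1 of the 2 of the 20 genes whose signal value was greater in replicate 4. ZK643.9 had 97.8, 49.3 and 47.2. It alone among the 9 ends with the ACA of the box H/ACA class, and it is 131 bp long.

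The 3 genes with GCGGAACNC had regions in the weaker part of the thresholded list, with signals of 97.5 to 103. T08B6.64 had 103 in the thresholded list, 56.7 in replicate 3 and 48.5 in replicate 4. Y53F4B.47 had 102, 76.3 and 52.0, with its strongest summit past the gene, 62 bp before the end of Y53F4B.12 and inside its body, and a second region of signal 97.4 whose summit lay 43 bp before the gene start. Y67A10A.14, a 174-bp gene and the longest of the 20, had 97.5, 59.5 and 35.7. All 3 end with CTGA. Stretches of 31 bases that occur elsewhere in the genome took up 23.6% of the sequence within 180 bp of the summit at Y67A10A.14, 9.97% at T08B6.64 and 3.93% at Y53F4B.47, while the shares at ZK643.9 and C53B7.8, which lack GCGGAACNC, were 12.1% and 2.11%. At the other 15 of the 20 regions there were none. The part of such repeats in these signals was not tested.

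Another 8 of the 20 genes held neither the TGGNNNA and GTTCNA pair nor GCGGAACNC. In some of them TGGNNNA or GTTCNA occurred singly or at another spacing. The regions of the 8 spanned nearly the whole range, from 93.9 to 228 with a median of 140.0. Y23H5B.10, at I:2514168-2514311, had 228 in the thresholded list, 127 in replicate 3 and 109 in replicate 4, with no protein-coding gene closer than 7909 bp. ZK265.10, which is 62 bp long, had 219, 107 and 109. Neither of these ends with CTGA or ACA, and both are followed by TTTT within 10 bp. W01C9.6, a gene with an ACA end that partly overlaps the globin gene glb-27, had 153, 93.9 and 57.8. The pooled list had no summit near ZK265.10 or W01C9.6, with the closest pooled summits 5916 and 1150 bp from their thresholded summits, so these were the 2 of the 20 genes missing from 1 of the 4 lists.

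C53B7.8, the only one of the 20 on the X chromosome, had 149.5 in the thresholded list, 86.2 in replicate 3 and 58.7 in replicate 4, and both end types were found in it. T27A3.9, which overlaps T27A3.8 and lies near the end of the nicotinamide riboside kinase gene nmrk-1, had 130.5, 62.0 and 59.1. Its summit lay inside the non-coding gene T27A3.12, which runs on the same strand, 17 bp from the start of that gene. H09I01.2, with a CTGA end, had 117, 55.9 and 44.5. The weakest of the 8 was Y53F4B.48, with an ACA end and beside the glutathione S-transferase genes gst-27 and gst-28. It had 93.9, 66.9 and 39.2. The region at K07C10.2, with 109.7, 59.8 and 40.7, had its summit 96 bp from the gene start and past the gene, inside the non-coding genes K07C10.3 and K07C10.8, which run on the same strand, and 9 bp before the start of the non-coding gene K07C10.6.

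**Figure D2:**
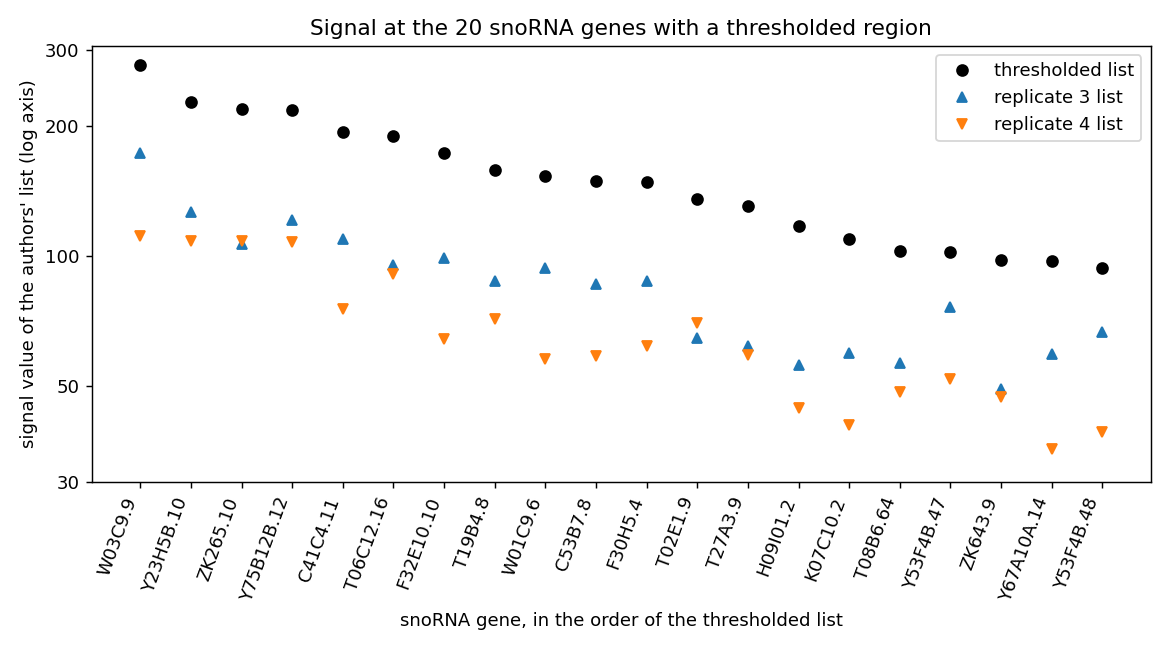
Signal value (log axis) of the region at each of the 20 snoRNA genes in the thresholded list (black circles), replicate 3 (blue triangles) and replicate 4 (orange triangles), with genes in the order of the thresholded list. Values fall from 277 at W03C9.9 to 93.9 at Y53F4B.48, and replicate 4 lies below replicate 3 at all genes but ZK265.10 and T02E1.9; the lists' values have no common scale.

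The summits lay just before the genes. Measured from the first base of the gene in its own direction, the 20 strongest summits had a median position of -40.5 bp, with quartiles at -57.75 and -18.75 bp. At the same genes the median was -21 bp with the summits of replicate 3 alone (without replicate 4), -36.5 bp with those of replicate 4 alone and -24.5 bp with pooled summits. In all, 16 of the summits were upstream, and each of these fell between 15 and 70 bp before the gene. The summits of Y75B12B.12, at 53 bp, and Y67A10A.14, at 87 bp, were inside the gene, and those of K07C10.2 and Y53F4B.47, at 96 and 173 bp, were past it. The farthest summit from its gene was that of Y53F4B.47, 94 bp beyond its end, and no further gene gained a region when the limit was widened to 500 bp. A summit is the middle of its region in 349 of the 369 thresholded entries, so it marks the centre of a region of up to 360 bp and not a measured point of contact. Replicate summits at the same gene differed by a median of 39.5 bp (at most 233 bp, at Y53F4B.47), and 14 of 20 lay within 50 bp of each other.

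At most of the 9 genes with the paired strings the thresholded summit fell among them, but this did not hold with the summits of either replicate alone. TGGNNNA began a median of 56 bp before the gene (49 to 72 bp) and GTTCNA a median of 12 bp before it (5 to 27 bp), with a median of 44 bp between their first bases. In 7 of the 9 the thresholded summit lay between the first base of TGGNNNA and the last base of GTTCNA. The exceptions were Y75B12B.12, whose summit was 67 bp past the first base of GTTCNA, and F32E10.10, whose summit was 46 bp before it. With the summits of replicate 3 alone, or of replicate 4 alone, fewer than 7 of the 9 lay there. The upstream thresholded summits at genes without the pair also lay 15 to 70 bp before the gene.

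**Figure D3:**
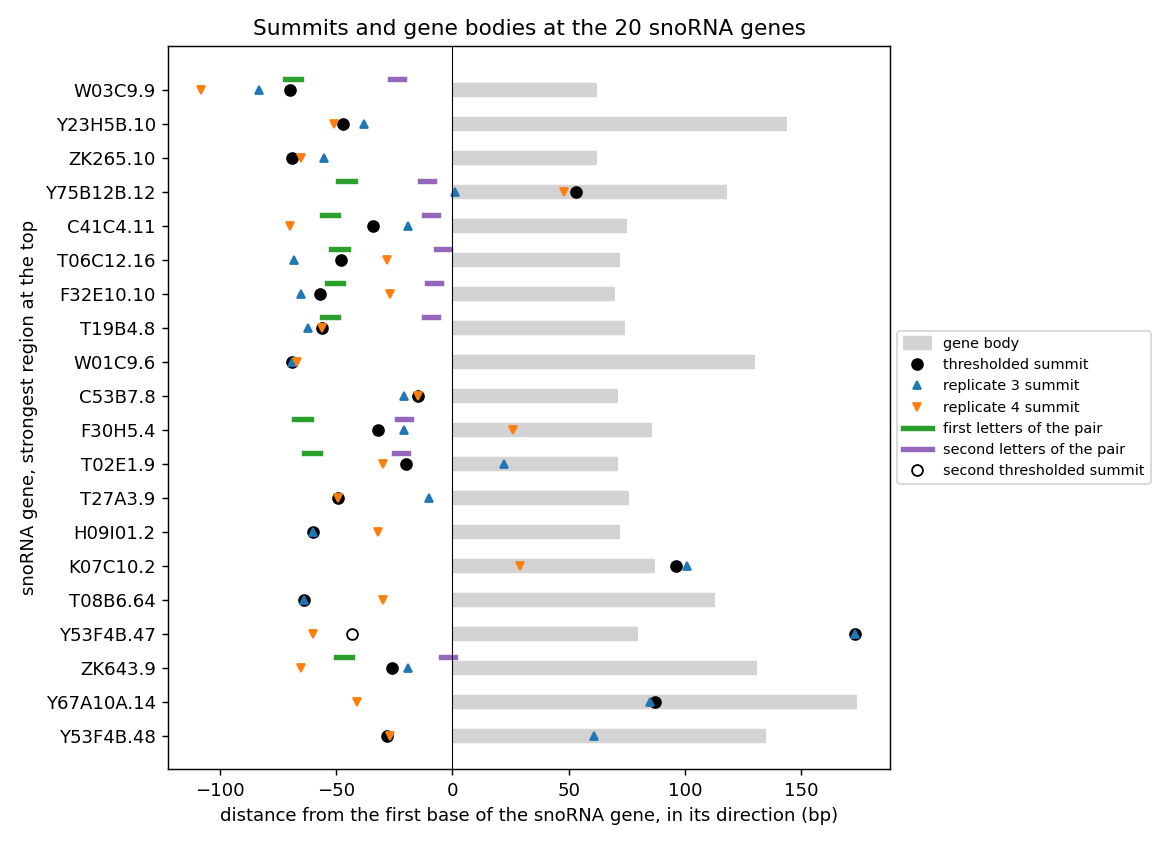
Position (bp from the first base of the snoRNA gene, in its direction) of summits in the thresholded list (black circles; open circle, the second region of Y53F4B.47), replicate 3 (blue triangles) and replicate 4 (orange triangles) at the 20 genes, with gene bodies in grey and the TGGNNNA and GTTCNA strings as green and purple bars. The 16 black circles left of the gene lie between 15 and 70 bp before the gene, and the 2 bars stand a median of 44 bp apart, before the gene or across its first bases.

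The paired strings were more common before the snoRNA genes with a thresholded region than before those without one. They were searched on the gene strand from 100 bp before to 50 bp inside the gene start, with GTTCNA beginning 30 to 65 bp after TGGNNNA. They were found at 9 of the 20 genes with a region, against 5 of the 110 without one and 1.06% of all annotated genes. Read the other way, 9 of the 14 genes with the pair had a thresholded region (64.3%, exact 95% interval 35.1 to 87.2), 13 had a pooled summit, and all 14 had one in replicate 4. The 14 genes with GCGGAACNC had a thresholded region in 3 cases (21.4%) and a pooled summit in 12, and the string is found in this window at 0.177% of all genes. Of the 102 genes with neither, 8 had a thresholded region (7.84%, interval 3.45 to 14.9) and 32 a pooled summit. The strings were chosen after these sequences had been seen, so the counts describe the genes and no test was run.

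The same pair stood before 9 of the 25 snoRNA genes inside protein-coding genes that had a thresholded region, against 11 of the 191 without one. It was present within the body of 456 of 612 tRNA genes (74.5%), which is where those genes carry their A and B boxes. GTTCNA alone was found at 12 of the 20 genes with a region, against 17 of the 110 without and 15.5% of all genes. Of the 5 short motifs searched on both strands in the same window, GTTCGANNC was found at 5 of the 20, against 6 of the 110 and 1.5% of all genes. CGAACC, which overlaps the reverse complement of GTTCG, was found at 5 against 6, with 2.58% of all genes. GCGCAC was found at 5 against 8 (2.03% of all genes) and ACCACT, which on the other strand is part of the A box region of many tRNA genes, at 6 against 12 (4.99%). The TATA-like TATAAA was found at 4 of the 20, against 20 of the 110 and 21.7% of all genes, close to that background. The 100 bp before the gene also had more G and C, with a median of 54% at the 20 genes (quartiles 51.75 and 58.25%), against 45.5% at the 110 others and 31% over all genes. For snoRNA genes inside protein-coding genes the median was 56% at the 25 with a thresholded region and 42% at the 191 without.

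The genes themselves also differed between those with and without a region. The 20 genes with one were short, with a median length of 78 bp (62 to 174 bp), against 153.5 bp (64 to 344 bp) for the other 110. CTGA was found in the last 15 bases of 11 of the 20 and of 17 of the 110, and ACA followed by 3 last bases was found in 4 of the 20 and 6 of the 110. Over all annotated genes the shares were 4.54% for CTGA and 1.84% for ACA. At snoRNA genes inside protein-coding genes CTGA was found in 8 of 25 with a thresholded region and 41 of 191 without. ACA was found there in 8 of 25 and 40 of 191. Neither end type was found in 6 of the 20, against 88 of the 110, so most of the genes without a region do not carry the end letters of either snoRNA class as annotated. The annotation does not give the class. Counted by end type, 11 of 28 genes with CTGA held a thresholded region (39.3%, exact 95% interval 21.5 to 59.4), 4 of 10 with ACA (40.0%, interval 12.2 to 73.8) and 6 of 94 with neither (6.38%, interval 2.38 to 13.4). In the pooled list these shares were 24 of 28, 7 of 10 and 28 of 94.

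A run of TTTT followed the genes with a region closely. It stood within 10 bp past the end of 14 of the 20 genes, against 19 of the 110 others (17.3%) and 19.5% of all genes, while tRNA genes stood at 93.6%. Of the 33 genes with such a run 14 had a thresholded region, against 6 of the 97 without it. Within 50 bp past the end TTTT was found at 19 of the 20, against 66 of the 110 and 61.0% of all genes. Among the 9 genes with the upstream pair 7 had TTTT within 10 bp, and among the 3 with GCGGAACNC 1 did. The contrast was also seen at snoRNA genes inside protein-coding genes. There TTTT stood within 10 bp past 16 of 25 with a thresholded region (64%) and 40 of 191 without (20.9%).

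No tRNA, snRNA, miRNA, rRNA or other snoRNA gene lay within 200 bp of any of the 20 summits. At 6 of the 20 no other annotated gene of any kind lay that close. Protein-coding genes lay within 200 bp of the summit at 9 of the 20, and all 11 such genes were near by their end and not by their start, at 60 to 197 bp from the summit. The protein-coding gene end was thus within 200 bp of the summit in 9 of 20 regions (45.0%) and a start in 0 of 20, against 81 (23.2%) and 58 (16.6%) of the other 349 thresholded regions. At the 39 other snoRNA genes with a pooled summit an end was that close in 8 and a start in 2. The neighbouring ends included those of unc-45, cyn-3, nhr-102 (a nuclear hormone receptor), gst-28, spe-12 and glb-27. Whether the regions belong to the snoRNA gene or to these gene ends cannot be told apart at the 9 genes.

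More widely, the nearest protein-coding gene was closer to the 20 genes, at a median of 202 bp, than to the other 110, at 693 bp. It faced the snoRNA gene with its end at 12 of the 20, with its start at 5 and overlapped it at 3, against 44, 63 and 3 of the 110. At the 110 it lay downstream of the snoRNA gene in 60 cases and upstream in 47. At the 20 it lay downstream in 13 cases and upstream in 4, as with the arrestin-domain gene arrd-15 before ZK643.9. Downstream neighbours included the chemoreceptor genes sre-23 and str-170 and the F-box gene fbxa-83. Non-coding genes overlapped 6 of the 20, in 1 case on the same strand, against 7 of the 110, of which 4 were on the same strand. None of the 20 had another snoRNA gene within 1 kb.

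The replicates ranked the snoRNA genes alike. Over the 20 genes the signals of replicates 3 and 4 had Pearson's r of 0.85 on the log10 scale and Spearman's rho of 0.85, and over the 53 genes with a summit in both lists r was 0.83 and rho 0.82. These values describe regions that share 1 pair of libraries, and the genes were kept in part for being strong in both. All 20 genes were among the 369 strongest entries of replicate 3 and 17 among those of replicate 4, while of the other 110 genes 0 and 2 were. Signals at the 20 genes were 49.3 to 174 in replicate 3, against at most 49.0 at the 45 others with an entry there. In replicate 4 they were 35.7 to 111, against at most 45.8 at 40 others, so the groups did not overlap in replicate 3 and did in replicate 4. The thresholded list was made from these lists, so this separation is partly its construction.

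**Figure D4:**
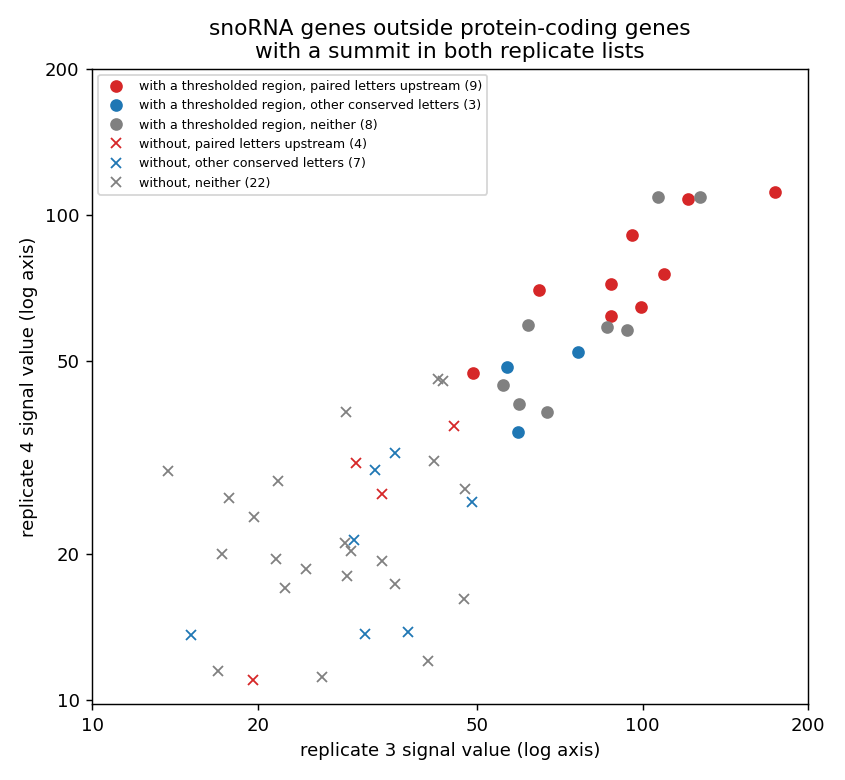
Replicate 3 against replicate 4 signal (both log axes) at the 53 snoRNA genes with a summit in both lists; circles have a thresholded region and crosses do not, and colour gives the letters found upstream (red, the TGGNNNA and GTTCNA pair; blue, GCGGAACNC; grey, neither). The 20 circles sit at or above 49.3 in replicate 3, and the 9 red circles include the strongest gene in both replicates, W03C9.9.

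Among the genes without a thresholded region, the 8 with the highest pooled signal had 69.1 to 90.8 in that list. The lowest pooled signal of the 18 genes with both a thresholded and a pooled summit was 88.7, at Y67A10A.14, so the groups overlapped there by 1 gene, M03D4.78. M03D4.78, upstream of which the kinesin gene zen-4 starts, had 90.8 in the pooled list, 42.5 in replicate 3 and 45.8 in replicate 4. Y39G10AR.24, at I:2410190-2410254 beside the end of the kinetochore gene zwl-1, had 84.0, 45.4 and 36.6, and it carries the upstream pair, a CTGA end and TTTT past its end. K02C4.8, with an ACA end and near the start of K02C4.2, had 79.5, 43.4 and 45.3. In replicate 3 all 3 were below the weakest of the 20, at 49.3, and in replicate 4 all 3 were above it, at 35.7.

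The next 5 were below the weakest of the 20 in each replicate in which they had a summit. C46C2.8, beside C46C2.5, had 77.9 in the pooled list, 47.6 in replicate 3 and 27.2 in replicate 4. Y74C9A.6, beside the end of homt-1, had 75.1, 41.9 and 31.0. F43A11.8, near the chemoreceptor gene srx-88, had 74.6 and 43.9 with no summit in replicate 4, and F59C6.15, near the neuropeptide-like gene nlp-4, had 73.3, 49.0 and 25.6. C16D9.10, near C16D9.6, had 69.1, 35.5 and 32.2. The last 3 of these carry GCGGAACNC. Summits at 6 of the 8 genes lay 19 to 71 bp before the gene in the pooled list, as at most of the 20, and those of F43A11.8 and C16D9.10 lay 109 and 214 bp past the gene start. Over all 39 genes with a pooled summit and no thresholded one, the pooled signal ran from 20.8 to 90.8 with a median of 45.6.

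Of 10 genes for proteins that bind and assemble snoRNAs, all found in the annotation, 1 had a thresholded summit within 200 bp (exact 95% interval 0.253 to 44.5%), against 1.51% of protein-coding genes and 1.38% of all genes. A pooled summit was found at 9 (interval 55.5 to 99.7%), against 56.7% of protein-coding genes and 32.8% of all genes. The gene with a thresholded summit was fib-1, which encodes fibrillarin, the methyltransferase of box C/D particles, with 135 in the thresholded list, 61.9 in replicate 3 and 59.7 in replicate 4. Its summit lay 164 bp past the end of the gene. The box C/D core protein genes nol-56, nol-58 and M28.5 (snu-13) had pooled signals of 38.4, 38.2 and 40.6. Among the box H/ACA genes, Y66H1A.4 (garr-1) had 96.3, K01G5.5 (dkc-1, dyskerin) 79.0 and nola-3 51.4, while Y48A6B.3 had no summit in any list. The assembly ATPase genes ruvb-1 and ruvb-2 had 67.6 and 56.7.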

How the data were processed

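The analysis used region lists deposited by the authors on ce11 for ChIP-seq of T26A5.8-GFP, with replicates 3 and 4, their pool, and a thresholded list. The lists on ce10 were not used, since no coordinates were converted. Per the labels and deposited notes, candidate lists were the input to the irreproducible discovery rate procedure and the thresholded list its output. Aligner, peak caller and versions: not given in the sources used here. For every region the deposited tables have a signal on an unstated scale, a −log10 q-value and a summit. The −log10 q-value deposited by the authors was at its maximum for 126 of 369 regions and was not used. Read depth is unknown, so no interval for reads can be given, and the exact binomial intervals (SciPy 1.17.1) cover the counting of genes only.

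Genes came from Ensembl release 115 and sequences from the RefSeq genome of the same build, read with Python 3.11.15. A gene held a region when a summit lay within 200 bp, and with several the strongest was used. Counts and medians were described without tests, since the design has 1 group. The lookup was tested on simulated regions. The members, the lists and the letter strings were chosen with earlier results of these data known. Genes named were every snoRNA gene with a thresholded summit, the 8 strongest others by pooled signal, members sharing a region, the nearest protein-coding genes and 10 genes for snoRNA-bound proteins; other neighbours were named after their values were seen. Alternatives were limits of 100 and 500 bp, overlap in place of distance, other gene definitions, stronger entries only, single replicates and other letters.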

Additional observations from a re-analysis of the deposited data

How the results depend on the processing

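Counts of snoRNA genes and regions moved by less than 1.5 times under all alternatives run. The 20 genes with a thresholded region were 20 at limits of 100 and 500 bp and where the region had to overlap the gene, 17 among genes overlapping no protein-coding gene, 26 when only genes within a protein-coding gene on their own strand were left out, and 15 in the stronger 184 regions. Among the 369 strongest entries of replicate 3 alone there were 20 genes and 20 regions, and among those of replicate 4 alone 19 and 19. In replicate 3 these were the same 20 genes, while in replicate 4 they were 17 of the 20 and 2 others. The pooled count of 57 ran from 46 to 67, and that of replicates 3 and 4 from 54 to 74. The paired letters, 9 genes, gave 7 and 10 under a stricter and a looser second string, chosen after seeing the data. The median summit position of -40.5 bp was -24.5 bp with pooled summits and -36.5 to -21 bp with those of replicate 4 or replicate 3 alone, upstream of the gene in each case. Pearson's r of 0.85 was 0.84 without the 2 genes farthest from the median in replicate 3. No read depth, control library or second condition was at hand, so precision per region cannot be given.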
